A study of Mus musculus with 8 samples.

Results

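The sites described here are the regions listed for phosphorylated STAT3 in STAT3α cells at 30 min and at 180 min of oncostatin M. A site was called kept when a region with the same chromosome, start and end was in both lists, lost when it was in the 30 min list alone, and new when it was in the 180 min list alone. The lists of 3725 and 40 regions together held 3730 sites, of 5343 distinct regions with an exact position in the 6 lists of the study. Of these, 35 were kept, 3690 were lost and 5 were new.

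The cells were mouse embryonic fibroblasts with the genotype STAT3-/-, which re-expressed STAT3α, the full-length spliceform, from an inducible construct held under puromycin selection at 10 μg/mL. A second line of the same genotype re-expressed STAT3β, a shorter spliceform without the C-terminal transactivation domain, and its lists are used here only for comparison. All cells received 4-hydroxytamoxifen at 1 nM for at least 48 h and were kept without serum for 16 h. They were then treated with human recombinant oncostatin M at 10 ng/mL for 30 or 180 min, or were left at 0 min. Chromatin immunoprecipitation with sequencing (ChIP-seq) used an antibody to tyrosine-phosphorylated STAT3, and 1 merged peak list per spliceform and time was used, with no replicate error. The age and sex of the embryos and the number of clones behind each line are not given in the labels, and peak positions cannot show fibroblast markers.

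Oncostatin M is a cytokine of the interleukin-6 family. Its receptors contain gp130 and activate JAK kinases, which phosphorylate STAT3 on a tyrosine, and the STAT3 dimer then enters the nucleus and binds DNA. Among the genes that STAT3 is known to induce is Socs3, whose protein binds gp130 and JAK and limits further signalling. STAT dimers favour a palindrome of the form TTCNNNGAA.

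Site positions refer to mm9, with the first base of a chromosome as 1. An mm9 annotation was not used here. Gene names given to 10 of the 35 kept sites, to 3 clusters of lost sites and to 1 lost site near Cebpb are provisional. They rest on general knowledge of where these genes lie in mouse genome builds, weighed with rough, unscripted allowance for the shift between mm9 and GRCm38, and not on an annotation of mm9. They were given after the positions had been seen, for genes whose place was known, and so are no sample of STAT3 targets. A name says that a site lies at or near that gene, or, for the kept site called downstream of Cebpb, in the wider region after it. Distances from sites to genes were not measured. The other 25 kept sites and the 5 new sites are given by position alone.

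The Socs3 promoter is shown first, because it was the promoter among those of the named genes that held the STAT palindrome just before the start. RefSeq promoters on GRCm38.p6 were matched by symbol for 9 of the 10 genes, and the 250 bases before the start were searched on both strands. The motif TTCCNGGAA was in 0 of the 9 promoters, against 0.913% of all 32851 promoters in the table. TTCNNNGAA, which includes every TTCCNGGAA, was in 1 of the 9, against 7.02% of all, and with 9 promoters no difference from that share can be read. The sequence runs 5′ to 3′ on the gene's strand, with the match in capitals.

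Socs3: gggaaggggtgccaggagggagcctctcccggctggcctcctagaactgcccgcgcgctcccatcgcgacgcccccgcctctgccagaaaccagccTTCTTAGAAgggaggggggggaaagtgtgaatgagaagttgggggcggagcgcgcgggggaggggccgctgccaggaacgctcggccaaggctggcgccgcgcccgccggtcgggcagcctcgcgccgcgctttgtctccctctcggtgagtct

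The Socs3 stretch is chr11:117969367-117969616 on the minus strand of GRCm38.p6, and its match begins 154 bases before the start. These coordinates belong to another build than the peaks and must not be set against them, so whether the match lies inside a peak was not tested. A match is a run of letters, not a measured binding site.

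Nearly all sites that STAT3α occupied at 30 min were gone from its list at 180 min. Kept sites were 35 of 3725 (0.940%, 95% exact Clopper-Pearson interval 0.655 to 1.3%), and lost sites were 99.1% (98.7 to 99.3%). Seen from the 180 min list, 35 of 40 regions (87.5%) were kept and 5 (12.5%, interval 4.19 to 26.8%) were new. These counts are what the classes were made from and were not tested. Intervals cover counting over regions only. The lists hold no height or read number, so a lost site is one that no longer passed the submitters' threshold, and a drop in signal cannot be told apart from a shallower 180 min library. In the STAT3β line 3.03% of 3891 sites at 30 min were kept (interval 2.52 to 3.62%) and 2 sites were new, with the same limits.

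**Figure D1:**
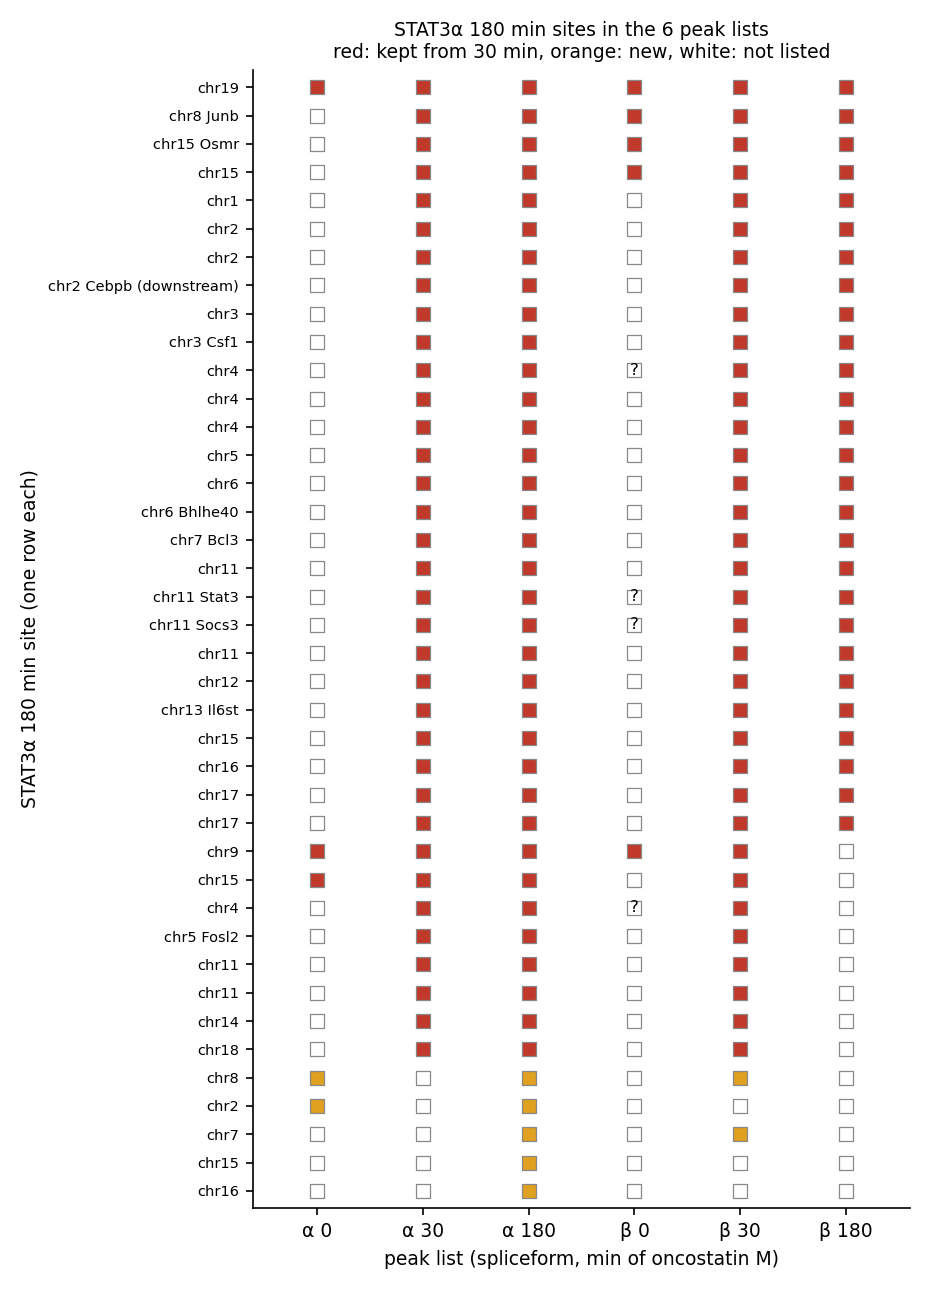
Each row is 1 of the 40 STAT3α sites of 180 min and each column is 1 of the 6 peak lists, by spliceform and min of oncostatin M. Filled squares mark a listed site, in red for the 35 kept and in orange for the 5 new sites, and a question mark stands where a 0 min position rounded to the nearest Mb could be that site. The 27 rows at the top are also in the STAT3β 180 min list.

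Around the feedback inhibitor Socs3 lay more STAT3α sites of 30 min within 50 kb than around any other kept site, although Bcl3 had more within 10 kb. The kept Socs3 site, chr11:117830560-117830959, was in both treated lists of both spliceforms and in no 0 min list at an exact position. A further 10 STAT3α sites of 30 min lay within 50 kb of it, and all 10 were lost by 180 min, as were 99.1% of all 30 min sites. On the side of lower coordinates they lay 5.79, 7.06, 19.6, 35.1, 44.7 and 45.9 kb away, and on the side of higher coordinates 10.2, 20.8, 22.6 and 26 kb away. Of these 10 sites, 7 were also in the STAT3β 30 min list, near the 61.2% of all STAT3α sites of 30 min. The site 5.79 kb away, chr11:117824769-117825168, was lost in STAT3α cells but was listed for STAT3β at 180 min. At this locus, then, STAT3α cells kept 1 of 11 sites, and STAT3β cells listed that site and 1 more of the 11 at 180 min. The same 180 min lists held 0.940% and 3.01% of all STAT3α sites of 30 min. The locus is described because it held a kept site, so its counts are no rate to set against those shares.

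Receptor genes of the pathway were also among the kept sites. The site chr15:6824175-6824574 lies at Osmr, which encodes the oncostatin M receptor subunit, and was in every list except that of STAT3α at 0 min. The other STAT3α site within 100 kb of it at 30 min, 16.7 kb away, was lost. The site chr13:113253967-113254366 lies at Il6st, which encodes gp130. It was in both treated lists of both spliceforms, and its nearest STAT3α neighbour at 30 min was 146 kb away. The site chr11:100800888-100801287 lies at Stat3 itself and was in the same 4 lists, with 1 lost site 40.3 kb away. The Stat3 gene is named here by its place on the genome. These cells lack endogenous STAT3 protein, and how the gene was disrupted is not given in the labels.

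Genes for the AP-1 factors, whose JUN and FOS proteins pair on DNA, supplied 2 kept sites. The site at Junb, chr8:87500257-87500656, was in every list except that of STAT3α at 0 min. Around it 4 further sites of 30 min, 2.26, 9.18, 10.7 and 16.6 kb away, were lost in STAT3α cells. The closest of them, chr8:87502518-87502917, was listed for STAT3β at 180 min. The site at Fosl2, chr5:32435435-32435834, was in both treated STAT3α lists and in the STAT3β list of 30 min, and was missing for STAT3β at 180 min. It was the 1 of the 10 named kept sites that the STAT3β 180 min list did not hold. A STAT3α site 2.54 kb from it was lost, and no STAT3β list held that one.

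The other 4 named loci also had 1 kept site among lost ones. At Bcl3, whose protein is a nuclear partner of NF-κB subunits, chr7:20401600-20401999 was kept. The 5 sites lost there lay on one side of it, at 1.1, 6.4, 7.83, 10.5 and 15.6 kb, so that 6 sites of 30 min stood within 16 kb. Downstream of Cebpb, which encodes a leucine zipper factor of inflammatory and acute-phase genes, chr2:167602937-167603336 was kept and 5 sites within 50 kb were lost. The lost sites nearest to it were 12, 12.3 and 16.8 kb away, and a lost site 88.8 kb away, chr2:167514087-167514486, was the 1 of them taken to lie at Cebpb itself. At Bhlhe40, which encodes a basic helix-loop-helix repressor, chr6:108609884-108610283 was kept, and a site 8.45 kb away was lost. At Csf1, which encodes the macrophage growth factor, chr3:107563034-107563433 was kept, and 4 sites 33.5 to 69.4 kb away were lost. All 4 of these kept sites were in both treated STAT3β lists.

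**Figure D2:**
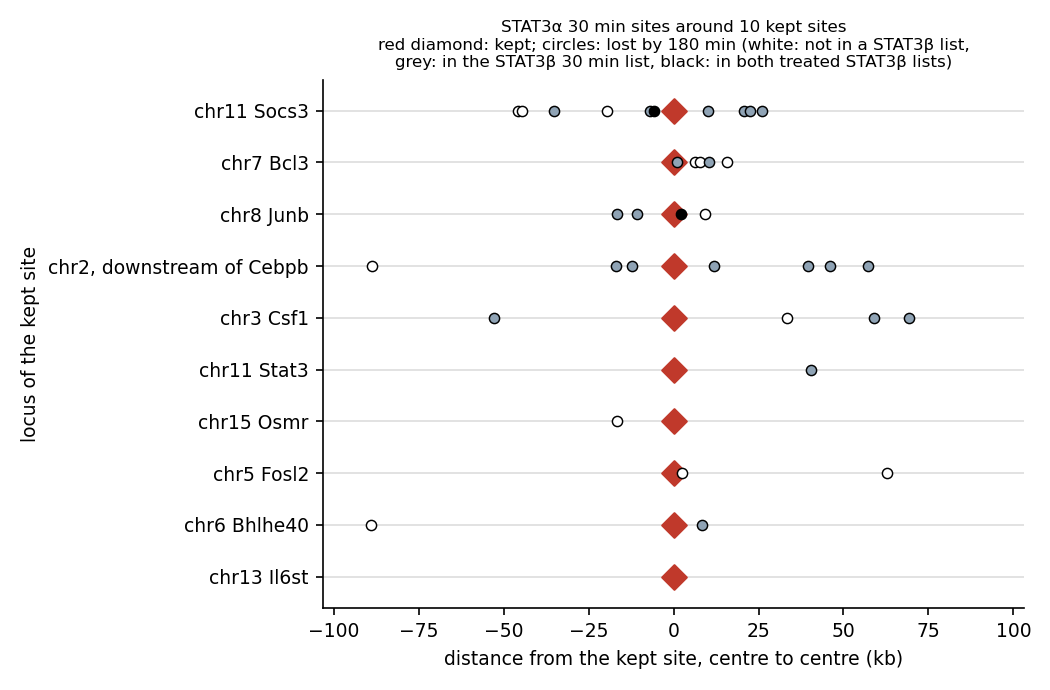
Each row is 1 of the 10 named kept sites (red diamond at 0), and circles mark the other STAT3α sites of 30 min by their distance in kb, all of them lost by 180 min. Black circles, 5.79 kb from the Socs3 site and 2.26 kb from the Junb site, were listed for STAT3β at 180 min, grey ones for STAT3β at 30 min, and white ones for neither.

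The remaining kept sites are given by position. Chromosome 1 had chr1:88422734-88423133, and chromosome 2 had chr2:160051121-160051520 and chr2:164258134-164258533. The latter had 7 lost sites within 100 kb, at 6.21 kb and more. On chromosome 3 chr3:65331908-65332307 was kept, with a lost site 12.2 kb away. Chromosome 4 had 4 kept sites, chr4:132651046-132651445, chr4:133369662-133370061, chr4:151236381-151236780 and chr4:151699618-151700017. The last 2 of these, 463 kb apart, were the closest pair of kept sites. On chromosome 5 chr5:122608016-122608415 and on chromosome 6 chr6:48791239-48791638 were kept, with no other STAT3α site within 100 kb. Chromosome 9 kept chr9:21754768-21755167.

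Chromosome 11 had 6 kept sites, the most of any chromosome. Beside those at Socs3 and Stat3 they were chr11:48807593-48807992, chr11:74651938-74652337, chr11:98812629-98813028 and chr11:121534294-121534693. The kept sites chr12:73186758-73187157, chr14:45625464-45625863 and chr16:24393710-24394109 had no other STAT3α site within 100 kb. The first of these was the most isolated, 1297 kb from its nearest neighbour at 30 min. Chromosome 15 had 4, of which those not named above were chr15:38400117-38400516, chr15:72398960-72399359 and chr15:76456294-76456693. Chromosome 17 kept chr17:47874911-47875310 and chr17:80115076-80115475, chromosome 18 kept chr18:38039758-38040157, and chromosome 19 kept chr19:4988979-4989378, which was in all 6 lists.

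Kept sites occurred on 18 of the 20 chromosomes with 30 min sites. The share kept was 1.99% on chromosome 11 (6 of 302, interval 0.733 to 4.27%), 1.75% on chromosome 15 (4 of 229, 0.478 to 4.41%) and 1.49% on chromosome 4 (4 of 268, 0.408 to 3.78%). Chromosomes 10 and X kept none of 158 and 75 sites, which allows shares up to 2.31% and 4.8%. The interval of each of the 20 chromosomes held the share over all sites, 0.940%. Uneven retention between chromosomes was thus not detectable with 35 kept sites.

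**Figure D3:**
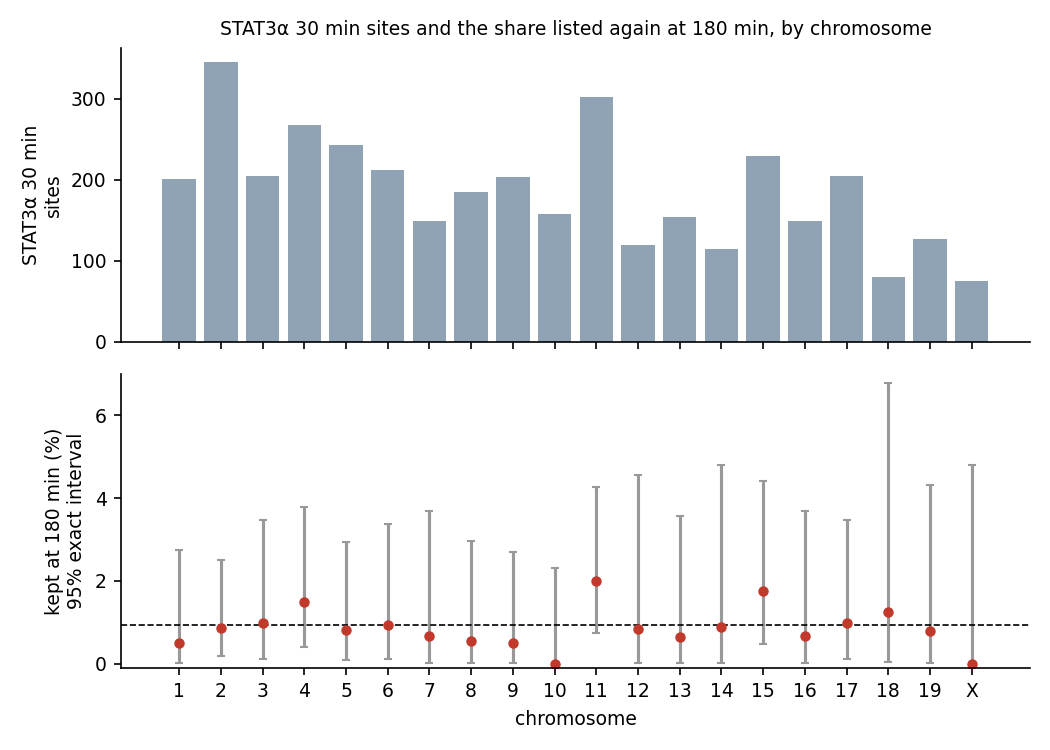
The upper panel gives the number of STAT3α sites at 30 min on each chromosome. The lower panel gives the share of them kept at 180 min, in percent with its 95% exact interval, and the dashed line is the share over all sites, 0.940%, which lies inside each interval.

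The STAT3β lists were not used to make the classes, and they held a larger share of the kept than of the lost sites. The STAT3β 30 min list held all 35 kept sites (interval 90 to 100%), against 2243 of 3690 lost sites (60.8%, 59.2 to 62.4%) and 61.2% of all STAT3α sites of 30 min. In the STAT3β 180 min list stood 27 of 35 kept sites (77.1%, 59.9 to 89.6%), against 85 of 3690 lost sites (2.3%, 1.84 to 2.84%) and 3.01% of all. In both lists the intervals of kept and lost sites did not overlap. No test was made, because neighbouring sites and sites of 1 library are not replicates. Peak strength is not listed, and its part in the difference was not tested.

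Seen from the sites that both spliceforms occupied at 30 min, retention in STAT3α cells went with retention in STAT3β cells. Of all 2278 such sites, STAT3α kept 35 (1.54%, interval 1.07 to 2.13%). Of the 112 among them that were listed for STAT3β at 180 min, it kept 27 (24.1%, 16.5 to 33.1%). Of the 2166 not listed for STAT3β at 180 min, it kept 8 (0.369%, 0.16 to 0.726%). These 8 were the Fosl2 site and the sites chr4:132651046-132651445, chr9:21754768-21755167, chr11:48807593-48807992, chr11:98812629-98813028, chr14:45625464-45625863, chr15:72398960-72399359 and chr18:38039758-38040157. Either spliceform or both listed 120 of the 2278 sites again at 180 min (5.27%, 4.39 to 6.27%).

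**Figure D4:**
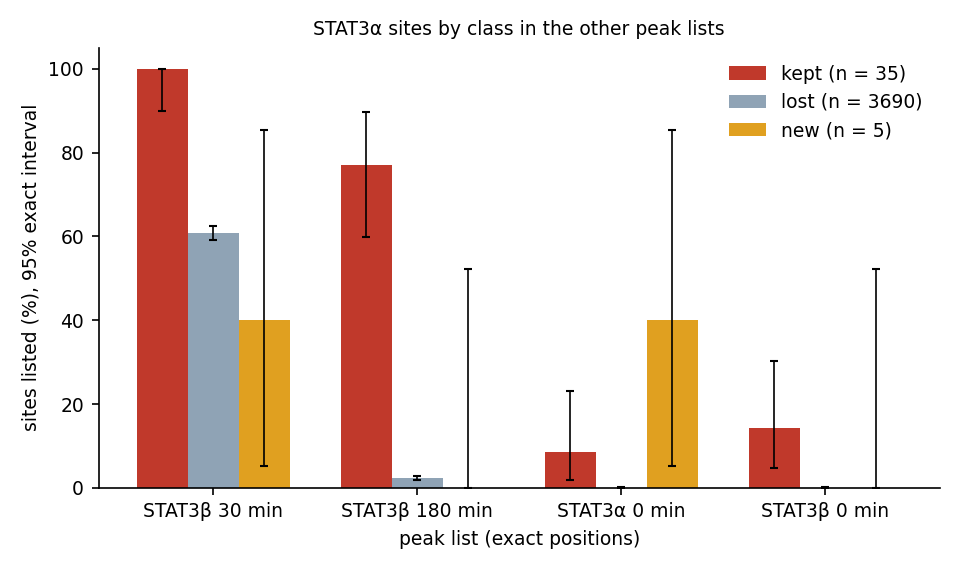
Bars give the percentage of kept (n = 35), lost (n = 3690) and new (n = 5) STAT3α sites found in 4 lists that the classes did not use, with 95% exact intervals over sites. Kept sites stand at 100% and 77.1% in the STAT3β lists of 30 and 180 min, and lost sites at 60.8% and 2.3%.

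The 85 sites that STAT3α lost but STAT3β listed at 180 min were on 20 chromosomes, and all 85 were in both 30 min lists. Those beside the Socs3 and Junb sites, described above, were the 2 of the 85 that lay within 100 kb of a kept site (2.35%, interval 0.286 to 8.24%), against 63 of all 3690 lost sites (1.71%, 1.31 to 2.18%).

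Several kept sites were already listed without cytokine. The STAT3α 0 min list held 3 of the 35 at an exact position (8.57%, interval 1.8 to 23.1%), against 1 of 3690 lost sites (0.0271%, 0.000686 to 0.151%) and 0.107% of all 30 min sites. They were the sites on chromosomes 9 and 19 and chr15:72398960-72399359. In the STAT3β 0 min list stood 5 kept sites (14.3%, 4.81 to 30.3%), against 2 of 3690 lost sites (0.0542%, 0.00656 to 0.196%). No other of the 3725 STAT3α sites of 30 min was in that list at an exact position. Sites at 100 Mb or beyond could not match either 0 min list exactly, because positions there had been rounded. The kept ones were those at Junb and Osmr, chr15:38400117-38400516 and again the sites on chromosomes 9 and 19. The lost ones were chr11:24999947-25000346, in both 0 min lists, and chr17:4626165-4626564, in that of STAT3β. Another 4 kept sites lay in the same Mb as a STAT3β 0 min position that had been rounded to the nearest Mb. These were the sites at Socs3 and Stat3, chr4:132651046-132651445 and chr4:133369662-133370061, and whether those rounded peaks were the same sites cannot be told. Lost sites also lay in the Mb of rounded positions. Without exact and same-Mb 0 min positions of either spliceform, 3646 of the 3690 lost and 25 of the 35 kept sites were left.

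The 5 new sites were chr2:33946114-33946513, chr7:6362777-6363176, chr8:14072529-14072928, chr15:76352517-76352916 and chr16:95948993-95949392. Their median distance to the nearest 30 min site was 316 kb, with a range from 47.5 kb on chromosome 7 to 1190 kb on chromosome 16, against 57.8 kb for kept and 61.9 kb for lost sites. The new site on chromosome 7 was thus nearer to a 30 min site than the median kept or lost site was. By the rule, kept and lost sites belong to the 30 min list and new sites do not, so these distances are not like for like. Within 50 kb of a 30 min site lay 1 of the 5 (interval 0.505 to 71.6%), an interval that holds the 45.8% over all 30 min sites.

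New is meant against the STAT3α 30 min list only. The new sites on chromosomes 2 and 8 were in the STAT3α 0 min list, and those on chromosomes 7 and 8 were in the STAT3β 30 min list. That leaves chr15:76352517-76352916 and chr16:95948993-95949392, which were in no other list. None of the 5 was in the STAT3β 180 min list, which allows a share up to 52.2%. The chromosome 15 site lay 104 kb from a kept site, chr15:76456294-76456693.

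By the share of sites with any neighbour within 10 or 50 kb, crowding was similar in value around kept and lost sites. Another STAT3α site of 30 min lay within 10 kb of 6 of 35 kept sites (17.1%, interval 6.56 to 33.6%) and of 686 of 3690 lost sites (18.6%, 17.3 to 19.9%), against 18.6% of all. Within 50 kb the shares were 48.6% (31.4 to 66%) and 45.8% (44.2 to 47.4%), against 45.8% of all. These intervals overlap, so a difference in these shares was not detectable. The share with 5 or more others was higher for kept sites as a value. Within 100 kb it was 5 of 35 kept (14.3%) and 148 of 3690 lost sites (4.01%), against 4.11% of all. Within 50 kb it was 8.57% of kept and 1.19% of lost sites, against 1.26% of all. Differences in these shares were not tested. In the most crowded places the share kept was higher as a value. Of 47 sites with 5 or more others within 50 kb, 3 were kept (6.38%, 1.34 to 17.5%), namely the sites at Socs3, Bcl3 and downstream of Cebpb. Of 2018 sites with no other within 50 kb, 18 were kept (0.892%, 0.529 to 1.41%). Those 47 sites share a few clusters and the intervals meet, so no difference was shown.

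**Figure D5:**
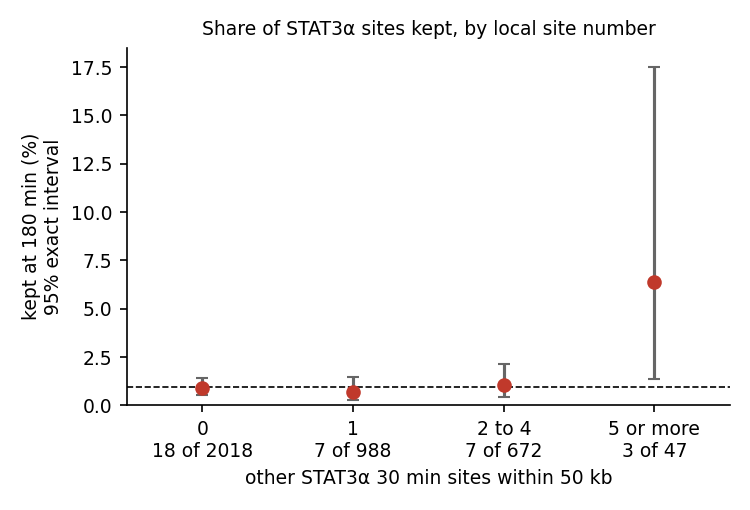
The share of STAT3α sites of 30 min kept at 180 min, in percent with its 95% exact interval, is plotted by the number of other STAT3α sites within 50 kb, with the counts under the axis. The value is 0.892% for isolated sites and 6.38% for those with 5 or more neighbours, with a wide interval from 3 of 47 sites. The dashed line is the share over all sites, 0.940%, which lies under that interval.

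When 30 min sites no more than 50 kb apart were joined, they formed 665 clusters of 2 or more sites and 2018 isolated sites. A kept site was in 17 of the clusters (2.56%), and no cluster had 2 kept sites. Of the isolated sites 18 were kept (0.892%), but a cluster has more sites that can be kept. These 17 clusters had 54 lost sites around their 17 kept ones. The 17 clusters of 6 or more sites held 128 sites, of which 5 were kept (3.91%, 1.28 to 8.88%), against 0.940% of all 30 min sites (0.655 to 1.3%). The share over all lies just under the interval of the 128. That interval treats sites of 1 cluster as independent, and no test was made. Clusters of lost sites alone included the one with the most sites, 12 over 147 kb at chr17:35857387-36003956, by Ier3, an immediate early gene. The same held for 8 sites at chr10:79481503-79621584, by Sbno2, which encodes a cofactor induced by STAT3 signalling, although 1 of those 8 was listed for STAT3β at 180 min. It also held for 6 sites at chr5:107516432-107629705, by Tgfbr3, which encodes a TGF-β coreceptor, with none listed for STAT3β at 180 min. Clusters of 11 and 10 lost sites lay at chr12:70472536-70640702 and chr11:51665693-51817970. The Socs3 cluster of 11 sites thus held a kept site, and clusters of 12, 11 and 10 sites held none. Of the 17 clusters of 6 or more sites, 12 held none and 5 held a kept site. Among all 665 clusters of 2 or more sites, 2.56% held one, but larger clusters have more sites that can be kept. Over all 30 min sites 99.1% were lost.

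Width did not vary among the late sites. All 40 regions of 180 min were 400 bp wide, as were 99.8% of those of 30 min. The 8 wider regions of the 30 min list were all lost, against 99.1% of all. Overlapping regions of different lists had the same ends, so width belongs to a common set of regions and was not read as signal.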

How the data were processed

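The deposited files are peak lists with the start, end and name of each region, in base positions on mm9, and hold no score. The submitters' processing notes name bedtools, HOMER 4.9, MACS2 2.1.1.20160309, STAR 2.5.0a and Trim Galore 0.4.2. Neither their roles, nor the peak threshold, nor how the 2 input samples entered, was stated in these sources. Duplicates were made and merged per sample, per the labels, so each of the 6 ChIP samples gave 1 list, depth is unknown and no test across replicates was possible. In the 0 min lists, positions of 100 Mb and more had been rounded to 3 digits (2 STAT3α and 4 STAT3β peaks); these entered no exact match.

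Regions were compared by identical chromosome, start and end. Shares have 95% exact (Clopper-Pearson) intervals, which treat regions as independent. Distances run between centres. The members, lists and comparisons were chosen with earlier results of these data known. The planned rule for names, the nearest gene of every 180 min site and listed genes near lost sites, needed an mm9 annotation, and the planned search for STAT motifs in sites needed an mm9 genome. These, the counts of gene lists and the share of sites at promoters were not run. Gene names are provisional: they come from general knowledge, weighed with a rough allowance for the shift between builds that no script made. The 10 symbols of kept sites were checked for their chromosome alone, against a RefSeq gene table of GRCm38.p6, and the other names were not checked. Alternatives to the matching, to the treatment of 0 min positions and to distances are given below. The matching code was run on simulated lists drawn from the 3725 regions, where 200 of 200 planted kept and 50 of 50 planted new regions were recovered. The planted kept regions were exact copies and the new ones overlapped none, so recovery followed by construction. It checks the code alone and not whether real sites were classed rightly. Python 3.11.15, scipy 1.17.1, numpy 2.4.6 and matplotlib 3.10.9 were used.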

Additional observations from a re-analysis of the deposited data

How the results depend on the processing

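Of 66 alternative values for 18 results, 59 stayed within 1.5 times the count or within the interval of the share. The counts of kept and lost sites did so under each alternative tried, namely overlap of 1 bp, centres within 1 kb, 0 min positions left out, 1 region per 10 kb cluster and autosomes alone. That limit is wide: kept sites went from 35 to as few as 25, and lost sites from 3690 to as few as 3322. Overlap of 1 bp could not change the counts, because overlapping regions had the same ends. Autosomes alone could not change kept or new sites, because chromosome X held none. The count of new sites went from 5 to 3 when exact 0 min positions of STAT3α were left out, and was also 3 when regions in the same Mb as a rounded position were left out, for STAT3α or, in a choice made after seeing the data, for either spliceform. The share of sites with a neighbour follows the distance by construction. For kept sites it went from 17.1% at 10 kb to 48.6% at 50 kb, and for lost sites from 18.6% to 10.8% at 5 kb, 45.8% at 50 kb and 23.9% at 10 kb with sites of either 30 min list counted. The alternatives for promoters, motifs in sites and gene lists were not run, for want of an mm9 genome and annotation. No paired analysis was possible because each spliceform and time had 1 merged list. Depth is unknown, and its part in the length of the lists was not tested.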
